A study of Mus musculus with 12 samples.

Results

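The mesothelial genes are 8 genes taken by name from the gene tables: Msln, Upk3b, Upk1b, Lrrn4, Wt1, Muc16, Gpm6a and Bnc1. All 8 were found among the 47643 genes of the tables. They were followed over 12 libraries of poly(A) RNA, each from a piece of pancreatic tumor grown from KPC4662, a mouse pancreatic ductal adenocarcinoma line that all 12 tumors share. Of the 12 tumors, 6 belong to the Young tumor group and 6 to the Old tumor group, and both groups carry the cell type label epithelial. No further treatment is named, and the age of the mice, their strain, their sex and the route of implantation were not given in the sources used here. As its title states, the series asks how the age of the host shapes the tumor around the same cancer cells, and the comparison made was old over young. Whether the pieces came from different mice is not stated, so p-values measure the spread between pieces.

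The mesothelium is a single sheet of flattened cells that lines the peritoneum, pleura and pericardium and covers the organs within, the pancreas included. Mesothelial cells carry epithelial junctions and keratins together with features of mesenchyme, and they can take on a fibroblast form after injury or beside a growing tumor. Msln encodes mesothelin, a glycoprotein tethered to the cell surface, and Muc16 encodes a very large membrane mucin that binds it. Upk3b and Upk1b encode uroplakins, named for the plaques of the bladder lining, and Lrrn4 and Gpm6a encode membrane proteins first described in neurons. Wt1 and Bnc1 encode zinc finger transcription factors. Mesothelin is also made by many pancreatic carcinoma cells themselves.

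Upstream sequence is shown for 4 members, in the windows that held a match to either motif marked below. The windows not shown, that of Muc16 and the second of Gpm6a, held neither. RefSeq promoter windows on GRCm38.p6 (mm10) matched 5 of the 8 members in 6 windows. Msln, Wt1 and Upk1b had no entry. Each line gives the 250 bases before an annotated start, 5′ to 3′ on the gene's strand. Capitals mark matches, on either strand, to GGAATG (the core bound by TEAD factors) or to GCGNGGGNG (a GC-rich form bound by WT1-type zinc fingers). Motif positions are counted back from the annotated start.
Upk3b: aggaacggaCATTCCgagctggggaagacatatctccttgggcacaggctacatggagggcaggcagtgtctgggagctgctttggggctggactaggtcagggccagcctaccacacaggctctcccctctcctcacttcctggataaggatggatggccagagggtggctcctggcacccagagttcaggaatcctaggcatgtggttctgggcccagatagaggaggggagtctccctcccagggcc
Lrrn4: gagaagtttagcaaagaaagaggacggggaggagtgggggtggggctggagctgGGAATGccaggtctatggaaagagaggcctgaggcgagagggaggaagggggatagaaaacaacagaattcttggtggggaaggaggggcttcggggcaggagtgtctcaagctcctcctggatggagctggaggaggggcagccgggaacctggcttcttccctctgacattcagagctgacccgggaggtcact
Gpm6a: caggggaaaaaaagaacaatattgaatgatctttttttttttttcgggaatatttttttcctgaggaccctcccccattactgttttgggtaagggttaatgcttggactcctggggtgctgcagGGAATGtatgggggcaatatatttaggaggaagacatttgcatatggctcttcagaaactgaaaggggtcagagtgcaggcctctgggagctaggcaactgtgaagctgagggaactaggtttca
Bnc1: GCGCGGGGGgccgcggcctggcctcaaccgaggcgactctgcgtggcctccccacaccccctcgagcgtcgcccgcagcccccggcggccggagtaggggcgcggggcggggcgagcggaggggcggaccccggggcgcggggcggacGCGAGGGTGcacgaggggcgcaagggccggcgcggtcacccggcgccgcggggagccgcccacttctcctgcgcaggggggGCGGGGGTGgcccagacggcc

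The Upk3b window is chr5:136038246-136038495 on the plus strand, Lrrn4 is chr2:132880863-132881112 on the minus strand, Gpm6a is chr8:54779184-54779433 on the plus strand and Bnc1 is chr7:81992300-81992549 on the minus strand. GGAATG or its complement began 241 bases before the start in Upk3b and 196 bases before it in Lrrn4. In the first of the 2 Gpm6a windows it began 125 bases before the start. That window ends at 54779433, far upstream of the GENCODE span of Gpm6a, which starts at 54954843. The second Gpm6a window, 54954478 to 54954727, lies next to that span and held no such match. Over the full 300-base windows it was found in 3 of the 6 member windows and in 14.7% of 32851 mouse promoter windows of the same length. GCGNGGGNG was found in 1 of 6, that of Bnc1, at 250, 102 and 21 bases before the start, against 12.3% of all windows. The GATA form AGATAA was in 0 of 6 (11.2% of all), the TATA form TATAAA in 1 of 6 (13.6%) and the E-box form CANNTG in 4 of 6 (72.3%), with the last allowed to overlap any other motif. The Bnc1 window stood out in composition, with 50 CpG dinucleotides and 83.3% G and C, against medians of 7.0 and 52.7% over all windows. The Upk3b window held 2 CpG. A match in these letters is a description of the sequence and is not evidence that a factor was bound.

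The genes lie on 7 chromosomes of mm10, with Lrrn4 and Wt1 both on chromosome 2, and all are annotated as protein coding. Msln (ENSMUSG00000063011) spans chr17:25748613-25754378 on the minus strand, 282 bases from its relative Mslnl on the opposite strand. Muc16 (ENSMUSG00000109564) spans chr9:18495455-18674530 on the minus strand. Upk3b (ENSMUSG00000042985) spans chr5:136038496-136046487 on the plus strand, and Upk1b (ENSMUSG00000049436) spans chr16:38773184-38800328 on the minus strand. Lrrn4 (ENSMUSG00000043110) spans chr2:132868305-132880891 on the minus strand, and Gpm6a (ENSMUSG00000031517) spans chr8:54954843-55060871 on the plus strand. Wt1 (ENSMUSG00000016458) spans chr2:105126529-105173616 on the plus strand, 18 bases from the antisense gene Wt1os, with no shared exon. Bnc1 (ENSMUSG00000025105) spans chr7:81966672-81992292 on the minus strand, and its exons overlap the antisense pseudogene 4833418N17Rik. Whether the counting used strand was not given in the sources used here, so reads of Bnc1 and that pseudogene may not be told apart.

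The libraries held 17754645 to 24097599 assigned counts. Levels are given in CPM, which are counts scaled to a common library size by the TMM method, and in TPM, which are also scaled for transcript length, where genes are compared with each other. Over all genes, 127 were higher and 235 lower in old tumors of 16013 tested. On log2(TPM + 1) values the split was 291 higher and 48 lower, and with total-count scaling it was 152 higher and 143 lower. Beside the label epithelial, 14 epithelial tumor genes were read, among them Epcam and the simple keratins. None was at 0, and their summed level was 5570 to 10590 CPM over the 12 libraries. The 11 fibroblast genes summed to 1341 to 9953 CPM, so these levels do not show that the pieces were epithelial only. Old tumor 1 stood apart from the rest in fibroblast, endothelial and adipocyte genes, with values given beside the results they touch.

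Msln was the abundant member by a wide margin. Its TPM ran from 237.5 to 374.6 in young tumors (median 348.4) and from 311.5 to 458.1 in old tumors (median 410.1). Wt1 came next with a median of 3.03 TPM over 12 libraries, and the median of Msln was 121-fold higher. Wt1 was in turn above Upk1b in all 12 libraries, with a median 8.78-fold higher. Below these 2 genes the order was Upk1b (median 0.345 TPM), Gpm6a (0.28 TPM), Upk3b (0.225 TPM), Lrrn4 (0.13 TPM), Muc16 and Bnc1 (both 0.095 TPM). These neighbours did not separate: Upk1b was above Gpm6a in 7 libraries, Gpm6a above Upk3b in 5, Lrrn4 above Muc16 in 7 and Muc16 above Bnc1 in 7. Upk3b was above Lrrn4 in 10 of 12.

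**Figure D1:**
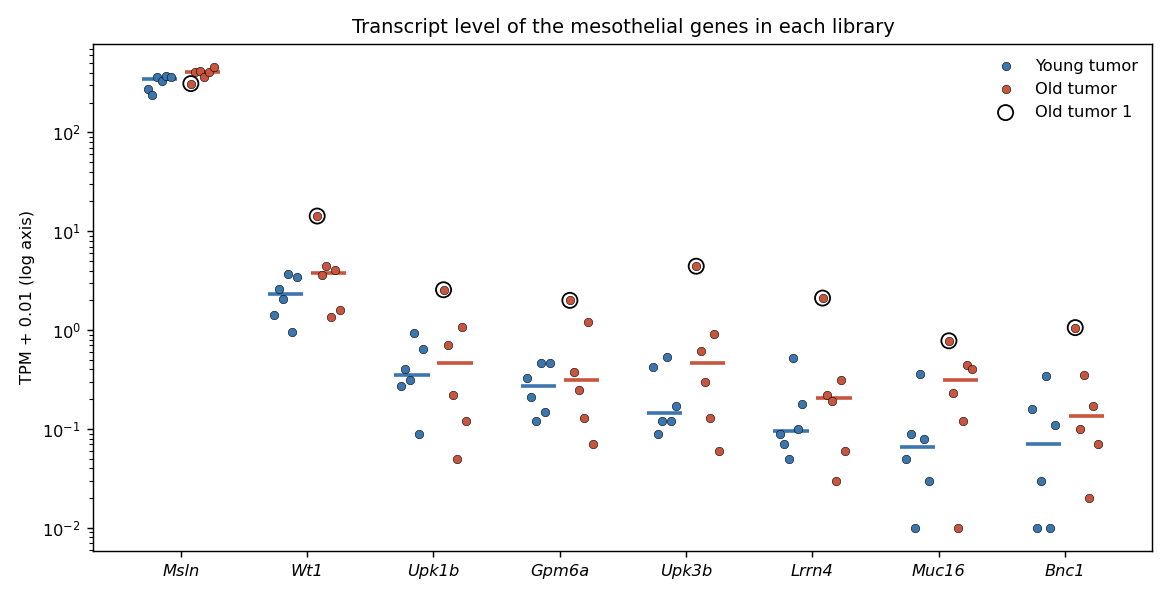
Transcript level of each mesothelial gene in every library, as TPM plus 0.01 on a log axis, with young tumors in blue, old tumors in red, a bar at each group's median and Old tumor 1 ringed. Msln sits far above the rest, the ages overlap for all 8 genes, and Old tumor 1 is the top point for the 7 genes other than Msln.

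None of the members passed the test between ages. The main test (edgeR's quasi-likelihood test with Benjamini-Hochberg adjustment over 16013 genes, adjusted p under 0.05) took 4 of the 8, Msln, Upk3b, Wt1 and Gpm6a. The other 4 were dropped by the filter on low counts. Of the 4 tested, 0 were higher and 0 were lower, where 0.793% of all tested genes were called higher and 1.47% lower. At an unadjusted p under 0.05 edgeR had 1 of 4, Upk3b, where 21.1% of all tested genes reached that level. DESeq2, run without that filter, gave an unadjusted p for all 8 members and an adjusted p for the same 4. It called 0, where it called 1429 of 15019 genes in all. At the unadjusted level it had 2 of 8, Upk3b and Muc16, the latter with no adjusted p. Limma-voom with quality weights called 0 of the 4, where it called 977 of 16013 genes, and had 0 at the unadjusted level. The 4 fold changes were all above 0, with a median log2 fold change of 1.04 against 0.03 over all tested genes. Without Old tumor 1 all 4 were above 0 with a median of 0.26. With it, the 11 fibroblast genes were also all above 0 (median 0.66, 0 called), as were the 7 endothelial genes (median 0.65, 0 called). The ages overlapped for all 8 members, and the share of all genes whose ages overlap was not counted. In bulk tumor RNA, a different number of mesothelial cells and a different amount of RNA per cell cannot be told apart.

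Msln overlapped between the ages and was not called. It ran from 318.8 to 536.3 CPM in young tumors (median 458.5) and from 391.4 to 548.8 CPM in old tumors (median 495.2). Young tumor 2 was the lowest library and Old tumor 6 the highest, with Young tumor 5 second. The means were 438.5 ± 76.9 and 483.7 ± 53.4 CPM (SD, n = 6 each). The log2 fold change was 0.14 (SE 0.119 by edgeR, adjusted p = 0.523), and it was 0.18 without Old tumor 1. Msln was the steadiest member, with a coefficient of variation of 17.5% in young and 11.03% in old tumors. In log2(TPM + 1) values its difference was 0.29 (limma unadjusted p = 0.035, adjusted p = 0.163), of which 0.13 was the shift in the median of all genes on that scale.

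Muc16, the mucin partner of mesothelin, was barely detected. Its counts ran from 0 to 9 in young tumors (median 2.5) and from 0 to 51 in old tumors (median 9.5). Old tumor 1 held 51 of the 107 counts over all libraries, Old tumor 5 held 15 and Old tumor 6 held 13. Young tumor 3 and Old tumor 3 had no read, which allows up to 3 counts, or 0.139 and 0.127 CPM. The mean was 0.145 ± 0.141 CPM in young and 0.644 ± 0.779 CPM in old ones (SD, n = 6 each), and the exact permutation test (two-sided) gave p = 0.104. That p was 0.208 without Old tumor 1, 0.0238 without Old tumor 3 and 0.0455 without Old tumor 4. With no count filter the edgeR log2 fold change was 2.09 (SE 0.883, adjusted p = 0.286), and 1.19 with Old tumor 1 also removed. Counts and TPM did not scale alike for this long gene: Old tumor 1 had 51 counts and 0.77 TPM, and Young tumor 4 had 9 counts and 0.35 TPM.

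The uroplakin gene Upk3b had the largest log2 fold change among the tested members, on few counts (2 to 226 per library, median 11). It ran from 0.193 to 1.23 CPM in young tumors (median 0.312) and from 0.110 to 9.41 CPM in old tumors (median 0.916). Old tumor 1 was 5.07-fold above the next library, Old tumor 5 at 1.86 CPM, while Old tumor 6 was the lowest of all 12. The means were 0.538 ± 0.440 and 2.24 ± 3.57 CPM (SD, n = 6 each), with a log2 fold change of 2.05 (SE 0.89, unadjusted p = 0.037, edgeR adjusted p = 0.206). Without Old tumor 1 the log2 fold change was 0.57 (edgeR adjusted p = 0.640).

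Upk1b, a tetraspanin that pairs with other uroplakins in the bladder, was dropped by the filter. It ran from 0.0926 to 1.05 CPM in young tumors (median 0.379) and from 0.0417 to 2.66 CPM in old tumors (median 0.457). Old tumor 1 was the highest and Old tumor 4, with 1 count, the lowest. The exact permutation p was 0.595, and the unfiltered log2 fold change of 0.72 was −0.18 with Old tumor 1 removed. Upk2 and Upk3a were the only 2 of 8 urothelial genes with 0 counts in all 12 libraries. Among the rest of that list, the uroplakin gene Upk1a had 3 to 27 counts and Krt20 had 1424 to 4721.

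Gpm6a, a proteolipid-family membrane protein, ran from 0.231 to 0.965 CPM in young tumors (median 0.568) and from 0.110 to 3.997 CPM in old tumors (median 0.584). The medians of the ages lay side by side, and the old group held both the highest libraries (Old tumor 1, then Old tumor 5 at 2.33 CPM) and the lowest (Old tumor 6). Its log2 fold change was 1.12 (SE 0.707 by edgeR, adjusted p = 0.383), 0.33 without Old tumor 1 and −0.61 without Old tumor 1 and Old tumor 5. Lrrn4, a leucine-rich repeat membrane protein, ran from 0.0925 to 1.23 CPM in young tumors (median 0.216) and from 0.0417 to 4.70 CPM in old tumors (median 0.418). Old tumor 1 held 113 of its 202 counts and Young tumor 4 was second with 28. The exact permutation p for Lrrn4 was 0.556, and its unfiltered log2 fold change of 1.44 was −0.24 with Old tumor 1 removed.

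Wt1, the zinc finger factor that marks the mesothelium from its embryonic origin on, was the best measured of the 7 low genes, with 34 to 523 counts. It ran from 1.57 to 5.75 CPM in young tumors (median 3.46) and from 1.42 to 21.8 CPM in old tumors (median 5.11). Old tumor 1 was 3.38-fold above the next library, Old tumor 3 at 6.45 CPM, and Old tumor 4 was the lowest of all. The means were 3.61 ± 1.68 and 6.99 ± 7.50 CPM (SD, n = 6 each), with a log2 fold change of 0.95 (SE 0.561 by edgeR, adjusted p = 0.350) that was 0.14 without Old tumor 1. Bnc1, the other zinc finger factor, ran from 0 to 1.01 CPM in young tumors (median 0.175) and from 0.0417 to 2.96 CPM in old tumors (median 0.340). It had no read in Young tumor 2 and Young tumor 5, which allows up to 0.144 and 0.139 CPM. Old tumor 1, Young tumor 4 and Old tumor 3 were its 3 highest libraries. The exact permutation p for Bnc1 was 0.379, and its unfiltered log2 fold change of 1.37 was 0.25 with Old tumor 1 removed.

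**Figure D2:**
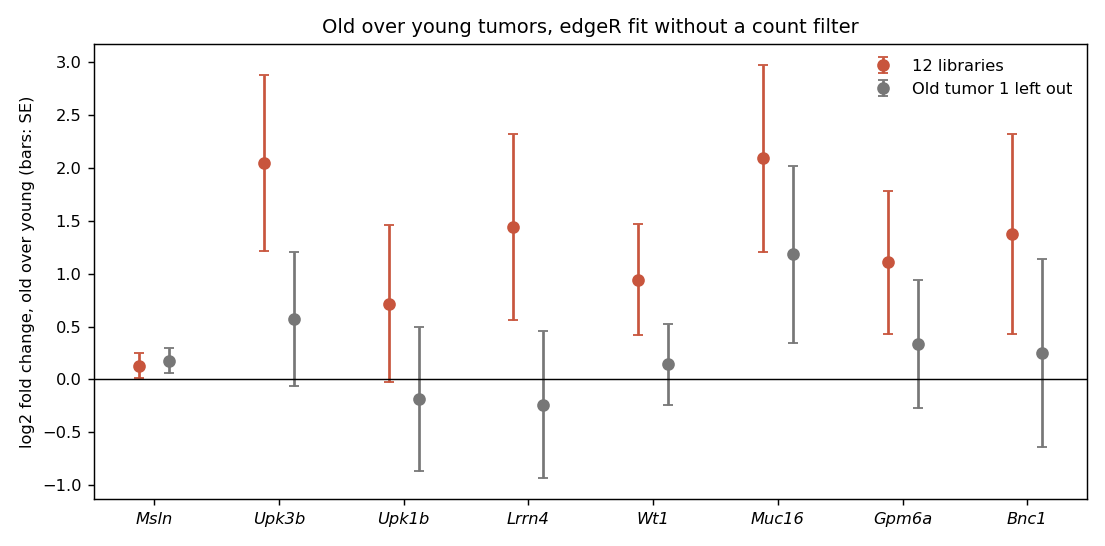
Log2 fold change of old over young tumors for each gene, from edgeR without a count filter so that all 8 have a value, with bars of 1 SE, for 12 libraries (red) and with Old tumor 1 left out (grey). The value of each gene other than Msln drops without that library, Upk3b to 0.58 and Muc16 to 1.19, and those of Upk1b and Lrrn4 pass below 0.

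For all 8 members the SD of the old tumors was larger than the difference between the means of the ages. A few libraries were high for all 7 members other than Msln. Old tumor 1 was the highest of 12 libraries for 7 members, while it ranked 10 for Msln. It held 57.8% of all Upk3b counts, 55.9% of Lrrn4, 47.7% of Muc16, 46.4% of Bnc1, 36.2% of Gpm6a, 36.0% of Upk1b and 35.7% of Wt1, against 7.64% of Msln. Relative to the median of the other 11 libraries it was 27.2-fold higher for Upk3b and 5.38-fold higher for Wt1, the extremes of the 7. By comparison, 2237 of all 16013 tested genes were highest in Old tumor 1. Within the young group Young tumor 4 was the highest for all 7, and it ranked 2 over all libraries for Lrrn4 and Bnc1. Old tumor 5 was among the top 4 for 6 of the 7, and Old tumor 4 among the bottom 4 for 6 of the 7. Summed over the 7 genes, Old tumor 1 had 27.1 TPM, Old tumor 5 had 8.11 TPM, Young tumor 4 had 6.81 TPM and the lowest library, Young tumor 5, had 1.43 TPM.

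**Figure D3:**
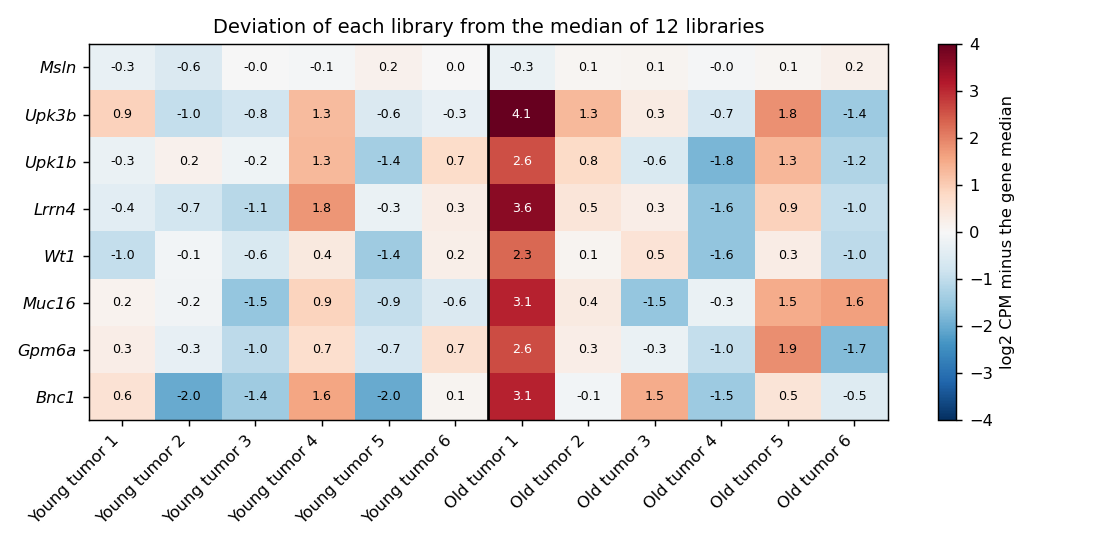
Deviation of each library from the gene's median over 12 libraries, in log2 CPM with a prior count of 2, for the 8 genes in rows and the libraries in columns, with a line between the ages. The columns of Old tumor 1, Young tumor 4 and Old tumor 5 are above 0 in each of the 7 rows below Msln, while the Msln row is pale throughout.

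Correlations across the 12 libraries split the members in the same way. Over the 21 pairs that leave out Msln, Pearson's r of log2 CPM was 0.509 to 0.913 (median 0.812), and Spearman's rho was above 0 in all 21. Of these, 17 passed at an adjusted p under 0.05 for r and 14 for rho, by permutation tests with 100000 resamples adjusted over 28 pairs. The 7 pairs with Msln had r of −0.339 to −0.0465, and 0 passed. The closest pair was Upk3b and Gpm6a (r = 0.913, permutation p = 6e-05, rho = 0.888, permutation p = 0.00027), which kept r = 0.788 without the 2 libraries farthest from the median of Upk3b. Lrrn4 and Upk3b followed (r = 0.906, rho = 0.867), then Lrrn4 and Wt1 (r = 0.891) and Upk1b and Gpm6a (r = 0.891). Muc16 was the loosest of the 7: its r with the other 6 was 0.509 to 0.654.

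Old tumor 1 carried a share of these values. Without it the 21 pairs had r of 0.0682 to 0.852 (median 0.659), all still above 0. The 6 pairs of Muc16 with these genes had r of 0.0682 to 0.333 without it, and 0.476 to 0.796 within the young tumors alone. The Msln pairs moved to −0.203 to 0.189. Within the young tumors alone the 21 pairs had a median r of 0.718, and 1 passed by the exact permutation test over 720 orders, Upk1b and Wt1 (r = 0.962). Within the old tumors, Old tumor 1 included, the median was 0.89 and 11 passed. Whether the ages differ in these correlations was not tested. The split of Msln from the other 7 was made after the values were seen and is given as a description. Over all 28 pairs the median r was 0.714.

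**Figure D4:**
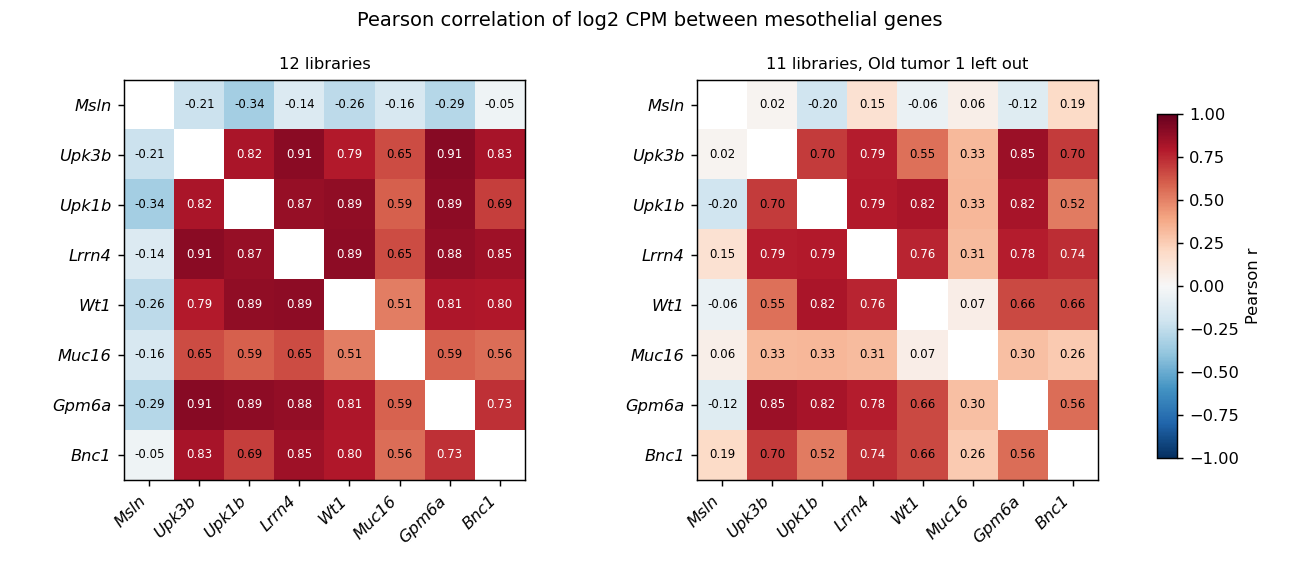
Pearson correlation of log2 CPM for each pair of mesothelial genes, over 12 libraries on the left and over 11 without Old tumor 1 on the right, with red for positive and blue for negative values. Msln is pale or blue against every other gene in the left panel, Upk3b with Gpm6a is 0.91 there and 0.85 on the right, and the Muc16 row fades from left to right.

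Genes of other cell types were set beside the members. Over 12 libraries the 11 fibroblast genes, which include the collagen genes Col1a1 and Col3a1 and the receptor gene Pdgfra, had a median r of 0.895 with Wt1, 0.831 with Upk1b, 0.807 with Lrrn4, 0.796 with Bnc1, 0.784 with Gpm6a, 0.743 with Upk3b and 0.632 with Muc16. The number of the 11 that passed was 8 for Wt1, Upk1b and Upk3b, 9 for Gpm6a, 7 for Lrrn4, 6 for Bnc1 and 1 for Muc16, with permutation p-values adjusted over 200 relations. With Wt1, Pdgfra had r = 0.946 (adjusted permutation p = 0.002, rho = 0.923), which was 0.886 without Old tumor 1 and 0.856 without the 2 libraries farthest out in Wt1. The fibroblast medians were lower without Old tumor 1 for these 7 members, at 0.769 for Wt1, 0.722 for Upk1b, 0.652 for Bnc1, 0.634 for Gpm6a, 0.613 for Lrrn4, 0.507 for Upk3b and 0.328 for Muc16. Within young tumors alone they ranged from 0.226 for Upk3b and 0.328 for Lrrn4 to 0.806 for Upk1b. Msln had a median r of −0.286 with the fibroblast genes, and 0 passed. With the 14 epithelial tumor genes, Msln had a median r of 0.338, 13 of 14 above 0 and 1 past the threshold, Cdh1 (E-cadherin, r = 0.716, adjusted permutation p = 0.0377, rho = 0.643, adjusted permutation p = 0.121). That median was 0.865 within young tumors and 0.0668 within old tumors, and whether the ages differ in it was not tested. The other 7 members had medians of −0.378 to −0.205 with the epithelial genes, and 0 passed.

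Old tumor 1, the top library for the 7 members, was also the top library for 8 of 8 adipocyte genes, 10 of 11 fibroblast genes, 7 of 7 endothelial genes and 5 of 8 leukocyte genes. Its summed adipocyte level was 261.8 CPM against at most 57.26 CPM in any other library. Adiponectin (Adipoq), a gene of fat cells, was at 30.2 CPM there and at 0 in at least 1 library of each age. Its summed fibroblast level was 9953 CPM against at most 4457 CPM elsewhere, and its endothelial level 453 CPM against at most 311.7 CPM. Its epithelial level, 5570 CPM, was the lowest of the 12. Young tumor 4 was unlike it: its fibroblast level of 3122 CPM was near the young median of 3021 CPM. Its adipocyte level of 24.17 CPM was under the young median of 26.25 CPM. But Young tumor 4 was the top library for 8 of 12 acinar genes, with a summed 66.09 CPM, against 3.41% of all tested genes. Of these 12 acinar genes, 9 had a median under 10 counts. The part of these other tissues in the levels of the mesothelial genes was not tested.

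**Figure D5:**
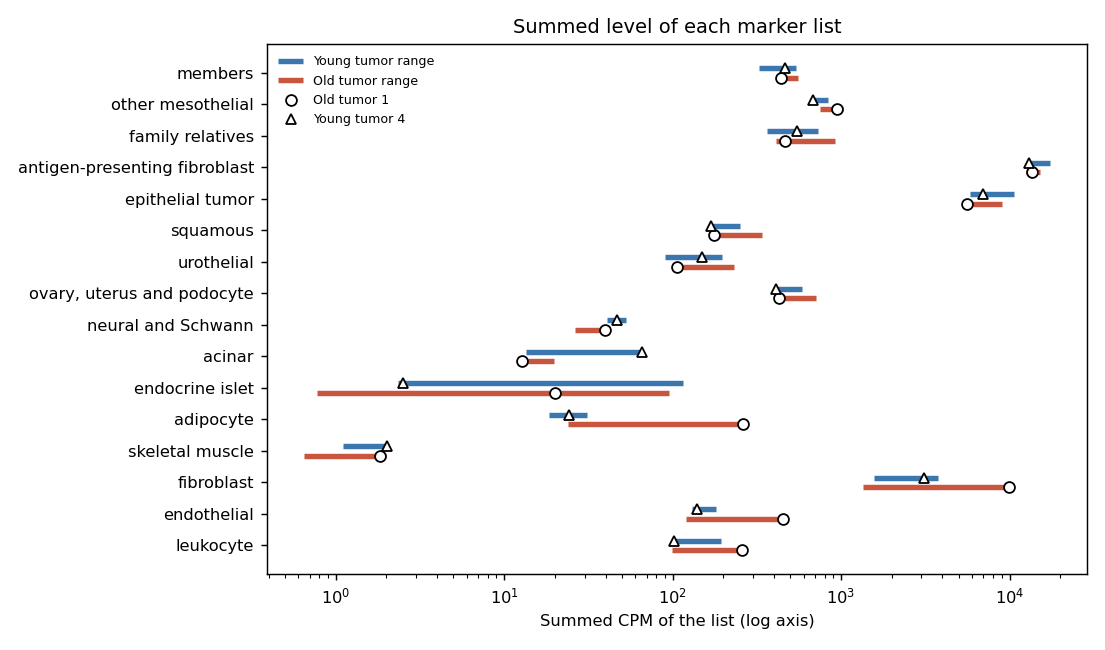
Summed CPM of each list of marker genes on a log axis, with the range over 6 young tumors in blue, the range over 6 old tumors in red, Old tumor 1 as circles and Young tumor 4 as triangles. Old tumor 1 forms the top of the old range for fibroblast, endothelial, adipocyte and leukocyte genes and the bottom for epithelial tumor genes, and Young tumor 4 tops the acinar range at 66.09 CPM.

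A list of 20 further genes known in mesothelium had fold changes mostly above 0 and no call. Of the 18 tested, edgeR called 0 higher and 0 lower, with 17 fold changes above 0, 1 below 0 and a median of 0.47 against 0.03 over all genes. At an unadjusted p under 0.05 there were 2 of 18, below the 21.1% over all genes. DESeq2, run without the filter, had 3 at that level and limma-voom 1, with 0 past the adjusted threshold in each. Over all genes DESeq2 called 1429 of 15019 and limma-voom 977 of 16013. Ildr2, an immunoglobulin-like membrane protein, was at 24.7 ± 5.39 CPM in young and 34.4 ± 11.01 CPM in old tumors (log2 fold change 0.48, SE 0.20, edgeR adjusted p = 0.190). Cldn15, a claudin that forms cation pores in tight junctions, was at 0.877 ± 0.298 and 1.78 ± 1.39 CPM (1.02, SE 0.44, adjusted p = 0.204). Pdpn, the mucin-type glycoprotein podoplanin, was at 9.97 ± 3.06 and 15.9 ± 9.76 CPM (0.67, adjusted p = 0.256). Prg4, the lubricating proteoglycan of serous and joint surfaces, was at 1.77 ± 0.628 and 3.92 ± 5.16 CPM (1.15, adjusted p = 0.281). All 4 ranges overlapped between ages.

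This list also followed Old tumor 1, where 15 of its 20 genes were highest. Without that library 12 of 18 were above 0 with a median of 0.10. Then 1 of the 18 was called lower, where 673 of all 16124 tested genes were called lower in that fit. The 1 was the growth arrest gene Gas1 (log2 fold change −0.47, edgeR adjusted p = 0.031), which was −0.26 (adjusted p = 0.400) with that library. Nkain4, Bcam, Efemp1 and Myrf, named after their values were seen, did not follow it: Old tumor 1 was at 0.777, 0.795, 0.85 and 0.697 of the median of the other 11 libraries for these genes in turn. Rspo1, which encodes a secreted enhancer of Wnt signalling, was at 4.37 CPM in Old tumor 1, while its mean was 0.359 ± 0.159 CPM in young and 0.983 ± 1.68 CPM in old ones (SD, n = 6 each). Calb2, which encodes the mesothelial antigen calretinin, did not pass the filter and was at most 0.375 CPM in any library.

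The genes whose pattern over the 12 libraries was most like that of the members were ranked among 13085 tested genes, by Pearson's r with the mean of the 4 tested members scaled each to unit SD. Rasl11a, a small GTPase gene, came first (r = 0.979, and 0.966 without Old tumor 1), then Lrrn4cl (0.965 and 0.941), named for its likeness to Lrrn4. Shank3, a scaffold gene best known at synapses, was at 0.942 and 0.896, Nxpe4 at 0.94 and 0.892, and the sarcoglycan gene Sgce at 0.938 and 0.899. The prion protein gene Prnp was at 0.932 and 0.902, Pdpn at 0.931 and 0.883, and Timp3, an inhibitor of matrix metalloproteinases, at 0.926 and 0.868. The mean mixes unlike patterns: Msln, 1 of the 4, had r of −0.213 with Upk3b, −0.264 with Wt1 and −0.287 with Gpm6a. The 4 members dropped by the filter were not in that mean. The ranked values are a description over 12 libraries, in which Old tumor 1 was far from the rest, and carry no test. Pdpn was the 1 gene of the 8 ranked here that was also on the list of further mesothelial genes.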

How the data were processed

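Poly(A) RNA of 12 pieces of KPC4662 pancreatic tumor, 6 Young tumor and 6 Old tumor, was sequenced from directional libraries, per the labels' protocols. The deposited tables hold expected counts and TPM per gene, which the authors made with cutadapt 2.3, STAR 2.7.0d and RSEM 1.3.1 on mm10, per the submitters' processing notes. The gene annotation and strand setting were not given in the sources used here. Of the deposited expected counts, 86.0% to 88.2% per library were whole, and all were rounded to whole counts. Libraries held 17754645 to 24097599 counts, so a gene of few counts carries a wide counting error.

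Tests used edgeR 4.0.16 in R 4.3.3 (TMM scaling, filterByExpr with a minimum count of 10, quasi-likelihood test, Benjamini-Hochberg adjustment over 16013 genes, adjusted p under 0.05), checked on simulated data. The SE given for an edgeR fold change was derived, as the absolute log2 fold change divided by the square root of the test's F statistic. Members that the filter dropped had an exact two-sided permutation test on CPM. Correlations used log2 CPM with a prior count of 2 and scipy 1.17.1. The deposited TPM values, which the authors scaled for transcript length and depth, ordered genes by level and served in an alternative with limma 3.58.1 at pseudocounts of 1 and 0.1. Other alternatives were DESeq2 1.42.0, limma-voom, other scalings and filters, a replicate block, covariates and libraries left out. The fit with no filter and Old tumor 1 removed together, and the pairs without Msln, were chosen after seeing the data.

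The 8 members and the other gene lists were chosen with earlier results of these data known. Named were all members, up to 4 tested genes of smallest p from a list, and the 8 non-member genes of at least 1 CPM most like the members in pattern. Other genes were named after their values were seen. Coordinates are from GENCODE on mm10, and promoter sequences are from RefSeq on GRCm38.p6.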

Additional observations from a re-analysis of the deposited data

Results flagged for a closer look

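Each member was checked within each age for a library whose gap to its nearest neighbour was large against the range of the 6, by Dixon's criterion. Of 16 groups checked 6 stood out. The criterion marks about 1 in 20 groups where values are normally spread. These CPM are skewed and the members correlate with each other, so that rate is no measure for the 6. In 5 of the 6 the library was Old tumor 1, which lay above the other old tumors for Upk3b at 9.41 CPM, Lrrn4 at 4.7 CPM, Wt1 at 21.8 CPM, Muc16 at 2.12 CPM and Bnc1 at 2.96 CPM. The sixth was Young tumor 4 for Lrrn4, at 1.23 CPM. Upk1b (2.66 CPM) and Gpm6a (3.997 CPM) were also highest in Old tumor 1 without meeting the criterion.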

How the results depend on the processing

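The counts of members called higher or lower stayed at 0 under all 26 alternatives, and so did that of further mesothelial genes called higher. The count of further mesothelial genes called lower was 1 with Old tumor 1 removed, both with the filter (leave-one-out range 0 to 1) and without it. Over all genes, 673 of 16124 were then called lower with the filter and 393 of 28840 without it. Members below the filter that passed the exact permutation test ranged from 0 to 1 over leave-one-out, the 1 being Muc16 without Old tumor 3 or without Old tumor 4. For Gpm6a the log2 fold change reversed to −0.14 with limma-voom quality weights and to −0.61 with both Old tumor 1 and Old tumor 5 removed, and the cause was not tested. Those of Msln (0.06 to 0.29), Upk3b (0.06 to 2.54) and Wt1 (0.04 to 1.17) stayed above 0 in every alternative that gave a value. Upk3b and Gpm6a had none under the filter of 1 CPM in 6 libraries. The median correlation over pairs was 0.489 to 0.812. Young and old libraries share replicate numbers. The deviations of same-numbered libraries had correlations of −0.23 to 0.139, over 0.1 in 2 of 6 pairs. No pairing is stated, so the main test used none, and whether same-numbered libraries share a batch was not tested. With the replicate block the log2 fold changes were 0.15 for Msln, 1.31 for Upk3b, 0.54 for Wt1 and 0.58 for Gpm6a, and calls over all genes went from 362 to 1. That number was 1106 without Old tumor 1, 1429 with DESeq2, 977 with limma-voom and 151 without a filter. It was 1 with an acinar gene score as a covariate, 2 without Old tumor 3, 9 without Young tumor 1 and 12 without Old tumor 2. Removing the length trend left 15 higher and 96 lower, and log2(TPM + 0.1) gave 312 and 44. Muc16, Bnc1, Lrrn4 and Upk1b, with medians under 10 counts, are limited by depth. Upk3b and Gpm6a were little higher, with medians of 11 and 12.5 counts and at least 10 counts in 6 and 7 of 12 libraries.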

Other observations

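Relatives of the members were read as a list of 13 genes. Of the 8 tested, edgeR called 0, with 5 above 0 and 3 below 0 and a median log2 fold change of 0.13. Upk3bl, an Upk3b-like gene, was at 2.14 ± 0.885 CPM in young and 1.23 ± 0.307 CPM in old tumors (log2 fold change −0.80, SE 0.304, unadjusted p = 0.021, edgeR adjusted p = 0.159), the opposite sign to Upk3b. Mslnl, the neighbour of Msln, was at most 0.703 CPM in any library. Bnc2, the relative of Bnc1, was at 0.612 ± 0.283 and 0.905 ± 0.527 CPM (0.57, adjusted p = 0.468).

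Some fibroblasts of pancreatic tumors that display class II antigens have been traced to mesothelium. A list of 8 genes named for them had 0 called by edgeR, and 4 of the 8 had a value below 0 at an unadjusted p under 0.05, a level that 10.4% of all tested genes reached in that direction: Cd74, the invariant chain gene (log2 fold change −0.55, adjusted p = 0.091), H2-Ab1 (−0.55, adjusted p = 0.120), H2-Eb1 (−0.48, adjusted p = 0.140) and H2-Aa (−0.37, adjusted p = 0.225). These 4 genes are also made by B cells, dendritic cells and macrophages. The median of this list was −0.43. The 4 tested genes of the ovary, uterus and podocyte list, other sites of Wt1, had 0 called and a median of 0.18. Of the 8 genes on that list Foxl2 was at 0 in all libraries, while Podxl had 9112 to 16265 counts and Star 83 to 363.

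With the 7 members other than Msln in place of the 4 tested ones, a choice made after the values were seen, the genes most alike were Shank3 (r = 0.971), Clec11a (0.966), Mmp23 (0.965) and Flrt2 (0.964), with the small proteoglycan gene Dcn (0.952) eighth. Shank3 and Sgce were in both sets of 8.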
